A study of Mus musculus with 12 samples.

Results

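The genes described here are the 3 D cyclins (Ccnd1, Ccnd2 and Ccnd3), their kinases Cdk4 and Cdk6, the kinase inhibitors Cdkn1a, Cdkn1b, Cdkn2c and Cdkn2d, and Rb1, the retinoblastoma gene. They were taken by symbol, and all 10 are among the 23420 genes of the deposited table. RNA was profiled in 12 libraries of mouse fetal liver cells that were negative for lineage markers and positive for c-Kit, each made from a tube of 100 sorted cells. The titles divide them into PIR+ and PIR- cells of wild-type and KO genotype, with 3 libraries in each of the 4 groups. PIR is the paired immunoglobulin-like receptor of lymphoid and myeloid cells. The gene removed in the KO is not named in the labels, nor is the mouse strain, so the knockout itself could not be checked in the RNA. The labels do not name the embryo or litter of any library, so the spread between libraries of a group may be partly technical. Each group also holds libraries of both labelled stages, described below, so the spread may include a difference in stage. The p-values rest on that spread, which the main test also pools over all tested genes.

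The labels disagree with each other on stage and on the sort. Groups follow the titles, but in 6 of the 12 libraries the markers field carries the other PIR sign. The source name gives embryonic stage E12.5 for 6 libraries and E14.5 for the other 6, in step with the markers field, whereas the series title gives E12.5. Labelled E12.5 are PIR+ wild type 1 and 2, PIR- wild type 2 and 3, PIR+ KO 3 and PIR- KO 1. Among the 6 libraries whose sign labels match, every PIR+ library is labelled E12.5 and every PIR- library E14.5. In that set, subset and labelled stage cannot be told apart. Over all 12 libraries, more wild-type than KO libraries of each subset are labelled E12.5. The genotype comparisons are therefore partly mixed with labelled stage, whose part was not tested. The series title calls PIR- cells negative for IL7R, and the markers field calls them positive.

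D cyclins are the cyclins that growth factor signals induce in the G1 phase of the cell cycle. Each pairs with Cdk4 or Cdk6, and the complexes phosphorylate the retinoblastoma protein, which then releases E2F transcription factors that drive genes of DNA replication. The INK4 inhibitors, here p18 (Cdkn2c) and p19 (Cdkn2d), bind Cdk4 and Cdk6 directly. The CIP/KIP inhibitors p21 (Cdkn1a) and p27 (Cdkn1b) bind cyclin-kinase complexes. The 3 D cyclins are partly redundant in blood formation, and Ccnd3 is the one needed for the expansion of early B- and T-lineage cells.

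Values are normalized molecule counts as the authors deposited them, read at the 3' end of messages through molecular barcodes, and means are shown with the SD over 3 libraries unless another n is stated. The libraries summed to between 155374 and 284648, which corresponds to an estimated 208195 to 442533 molecules, and the PIR- sums of 155374 to 222700 lay mostly below the PIR+ sums of 203135 to 284648. This difference shifts every comparison of the subsets: the median tested gene was 0.51 higher on the log2 scale in PIR+ wild-type cells and 0.39 higher in PIR+ KO cells. Each comparison was therefore also made after median-of-ratios scaling, which brings that median close to 0. Such scaling would also remove a real difference in the amount of RNA per tube. The deposited and the scaled values thus answer different questions, level per tube and level relative to other genes. Kit was between 18.6 and 56.3 and Il7r between 9.7 and 24.4 over the 12 libraries, and Pira1, Pira2 and Lilrb3 were above 0 in every PIR+ library and at 0 in every PIR- library, so these 3 genes follow the titles. Marker genes of blood lineages separated the subsets. All 10 genes of a B-lineage list were in the table, and PIR- cells had summed levels of 864.3 to 1159.3 (wild type) and 735.6 to 1158.6 (KO), against 25 to 41.9 and 15.2 to 26 in PIR+ cells. The 7 genes of a stem and multipotent progenitor list summed to 264 to 339.7 (wild type) and 325.3 to 392.4 (KO) in PIR+ cells, against 16.9 to 24.9 and 47 to 55.9 in PIR- cells. Their part in the differences between the subsets was not tested. Cd3e, which marks T cells, was at 0 in all 12 libraries. Hba-a1, an alpha globin gene, was above 100 in 5 libraries (PIR+ wild type 3, PIR- wild type 2 and 3, PIR+ KO 1 and PIR- KO 1). In all of them the markers field carries the other PIR sign, as it does in PIR+ KO 2. Leaving out the globin-rich libraries and keeping those with matching labels thus differ only in PIR+ KO 2 and are not separate checks.

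Of the 10 genes, 4 reached a value of 10 in at least 3 libraries and entered the test of 4542 genes: Ccnd1, Ccnd2, Ccnd3 and Cdk4. The other 6, namely Cdk6, Rb1 and the 4 inhibitors, lay below that limit, and all 6 were above 0 in at least 1 library. The 4 tested genes map on GRCm38 to chromosome 7, 144929931 to 144939925 (Ccnd1), chromosome 6, 127125162 to 127152193 (Ccnd2), chromosome 17, 47505051 to 47599691 (Ccnd3), and chromosome 10, 127063534 to 127067920 (Cdk4).

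Promoter sequence is shown for Ccnd3 and Cdkn1b, which both had their higher levels in PIR- cells in the comparisons that follow. Cdkn2c was also higher in PIR- cells and has entries, but its sequence is not shown. The RefSeq table (GRCm38.p6) had an entry for 7 of the 10 genes, with 10 start sites in all. Ccnd1, Ccnd2 and Rb1 have no entry. Each line gives the 250 bases before a start site, 5′ to 3′ on the plus strand, with motif matches in capitals.
Ccnd3, upstream start, chr17:47504801-47505050: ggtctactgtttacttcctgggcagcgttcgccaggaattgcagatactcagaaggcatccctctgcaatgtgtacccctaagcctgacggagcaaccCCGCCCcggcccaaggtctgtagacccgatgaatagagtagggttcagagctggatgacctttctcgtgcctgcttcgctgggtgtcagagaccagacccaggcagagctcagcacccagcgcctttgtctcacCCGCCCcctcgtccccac
Ccnd3, downstream start, chr17:47593217-47593466: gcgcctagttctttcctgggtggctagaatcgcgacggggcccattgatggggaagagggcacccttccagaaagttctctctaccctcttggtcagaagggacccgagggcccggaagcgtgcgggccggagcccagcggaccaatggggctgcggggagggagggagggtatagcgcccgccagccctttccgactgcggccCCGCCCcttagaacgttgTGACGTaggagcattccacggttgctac
Cdkn1b, chr6:134920151-134920400: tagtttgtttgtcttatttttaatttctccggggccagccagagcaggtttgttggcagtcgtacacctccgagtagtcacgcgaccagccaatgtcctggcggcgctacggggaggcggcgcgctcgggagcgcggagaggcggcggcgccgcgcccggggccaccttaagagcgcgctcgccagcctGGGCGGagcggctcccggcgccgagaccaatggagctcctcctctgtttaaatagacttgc
The motifs searched, on both strands, were the GC box GGGCGG, the E-box CAGGTG, the Runx motif TGTGGT, the E2F motifs TTTCCCGC and TTTGGCGC, and the CRE core TGACGT. None of these overlaps another in the windows shown. Over 32851 RefSeq windows of this length, the GC box was found in 32.7%, CAGGTG in 17.2%, TGTGGT in 14.05%, either E2F motif in 1.30% and TGACGT in 6.47%. The window before the upstream Ccnd3 start held 2 GC boxes. That before the downstream start held 1 GC box and 1 TGACGT, and it overlapped an annotated exon by 31 bases. The Cdkn1b window held 1 GC box. A GC box was found in 7 of the 10 windows of these genes, and neither E2F motif in any. A match describes the letters only, and molecules counted at the 3' end do not tell the Ccnd3 start sites apart.

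The D cyclins divided the subsets in opposite directions. In wild-type cells Ccnd1 and Ccnd2 were higher in PIR+ libraries, by 11.7 and 6.47 times as a ratio of means, and Ccnd3 was 4.67 times higher in PIR- libraries. In KO cells Ccnd1 and Ccnd3 kept this order and Ccnd2 no longer passed the test. Cdk4, the kinase they share, differed least as a ratio of means, 1.75 in wild type and 1.36 in KO. In bulk samples such as these, fewer cells of a type and less RNA per cell cannot be told apart.

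**Figure D1:**
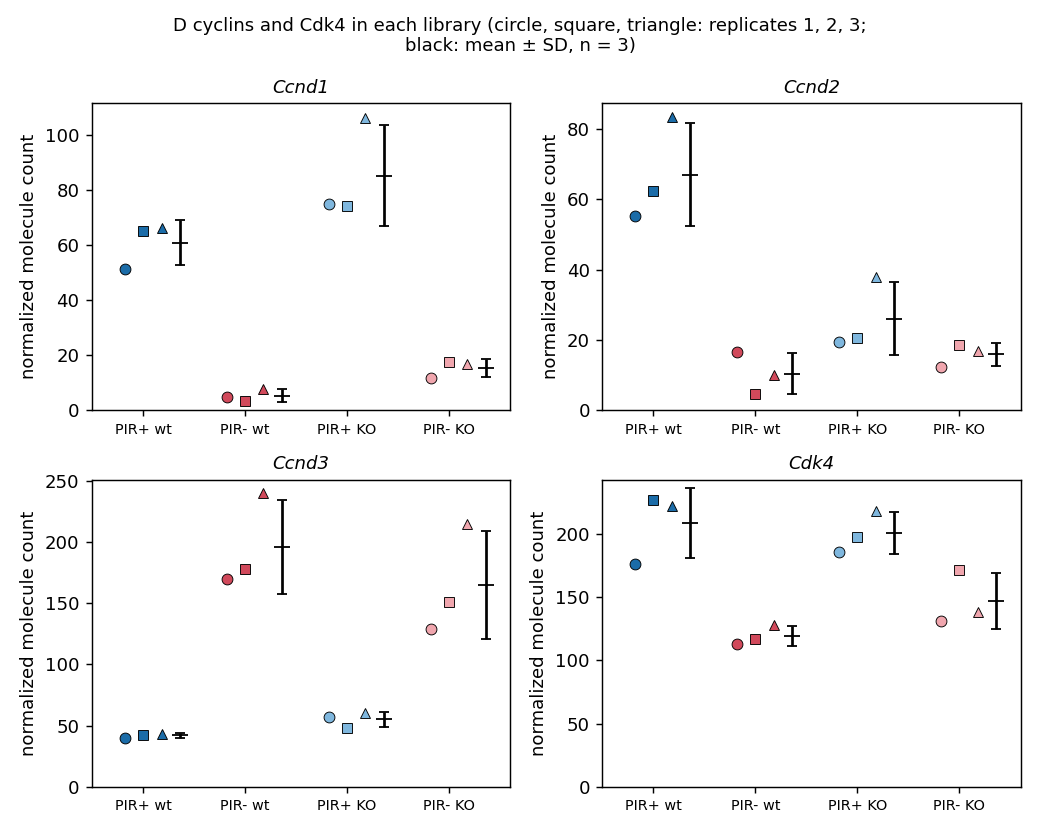
Normalized molecule counts (vertical axis, linear from 0) of the 3 D cyclins and Cdk4 in each library of the 4 groups, with symbols for replicates 1 to 3 and bars for the mean ± SD (n = 3). Ccnd1 sits above 50 in every PIR+ library and below 18 in every PIR- library, Ccnd3 shows the opposite order, and Ccnd2 stands highest in PIR+ wild type alone.

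Ccnd1, the D cyclin most often induced by mitogens, was 51.4, 65.1 and 66.4 in PIR+ wild-type libraries and 4.8, 3.1 and 7.8 in PIR- wild-type libraries. It was 75.1, 74.4 and 106.5 in PIR+ KO and 11.7, 17.3 and 16.9 in PIR- KO. Every PIR+ library was above every PIR- library, and the PIR- KO libraries were all above the PIR- wild-type ones. The groups therefore ranked PIR+ KO (85.3 ± 18.3), PIR+ wild type (61.0 ± 8.31), PIR- KO (15.3 ± 3.12) and PIR- wild type (5.23 ± 2.38). In limma the subset difference was 3.37 ± 0.25 (log2, SE) in wild type, with an adjusted p of 1.79e-22, and 2.40 ± 0.25 in KO, with an adjusted p of 3.88e-14. After median-of-ratios scaling it was 2.91 (adjusted p = 4.72e-12) and 2.01 (adjusted p = 1.07e-08).

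Ccnd2, a D cyclin of hematopoietic progenitors and B cells, was 55.2, 62.5 and 83.4 in PIR+ wild type and 16.4, 4.6 and 10.1 in PIR- wild type. It was 19.4, 20.6 and 38.0 in PIR+ KO and 12.2, 18.5 and 16.9 in PIR- KO. The 3 PIR+ wild-type libraries stood above all others. The 3 PIR+ KO libraries did not overlap the PIR- KO libraries, but the lowest of the former and the highest of the latter were only 19.4 and 18.5. The subset difference was 2.71 ± 0.27 in wild type (limma adjusted p = 5.11e-15) and 0.63 ± 0.27 in KO (adjusted p = 0.0686), and after scaling 2.22 (adjusted p = 3.13e-07) and 0.25 (adjusted p = 0.640). Both without the globin-rich libraries and among those with matching labels the wild-type difference was 1.78, with PIR- wild type 1 as the only library of its group. Both settings keep the same wild-type libraries. Each comparison was also run in 20 alternatives, which changed the scaling, the added constant, the filter or the libraries used. In KO the difference passed in 6 of them. Among these was the set of 6 libraries whose sign labels match (1.06). There PIR+ KO 3 is the only library of its group, and the subsets also differ in labelled stage. The others were an added 5 in place of 1 (adjusted p = 0.0490) and fits without 1 library. Those left out replicate 2 or 3 of PIR- wild type (adjusted p = 0.0426 and 0.0451) or replicate 1 or 2 of PIR+ KO (0.0372 and 0.0478).

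Ccnd3, the D cyclin that early lymphoid expansion requires, was 40.0, 42.7 and 43.4 in PIR+ wild type and 170.2, 178.1 and 240.5 in PIR- wild type. It was 56.9, 48.5 and 60.1 in PIR+ KO and 129.2, 151.1 and 214.5 in PIR- KO. Every PIR- library was above every PIR+ library, while the 2 genotypes overlapped within PIR- cells. The means were 196 ± 38.5 in PIR- wild type, 165 ± 44.3 in PIR- KO, 55.2 ± 5.99 in PIR+ KO and 42.0 ± 1.80 in PIR+ wild type. The subset difference, PIR+ against PIR-, was -2.18 ± 0.19 in wild type (limma adjusted p = 7.37e-18) and -1.54 ± 0.19 in KO (adjusted p = 1.12e-10). Scaling widened it to -2.69 (adjusted p = 1.37e-16) and -1.93 (adjusted p = 1.78e-13).

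Cdk4, the catalytic partner of the D cyclins, was 176.4, 226.9 and 221.7 in PIR+ wild type and 112.9, 117.0 and 128.0 in PIR- wild type. It was 185.4, 197.3 and 218.2 in PIR+ KO and 130.8, 171.8 and 138.1 in PIR- KO. No PIR- library reached the lowest PIR+ library on the deposited scale. The subset difference of 0.79 ± 0.18 in wild type (limma adjusted p = 0.000164) was near the shift of the median gene, and after scaling it was 0.28 (adjusted p = 0.0690). In KO it was 0.45 ± 0.18 (adjusted p = 0.0457) and after scaling 0.05 (adjusted p = 0.851). The KO call was lost in 12 of 20 alternatives, 8 of which left out 1 library (PIR+ wild type 2, PIR- wild type 1 or 2, any PIR+ KO library, or PIR- KO 1 or 3), with adjusted p from 0.00287 to 0.851 over all 20.

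Without the globin-rich libraries the subset differences of the other 3 genes were 3.34 (Ccnd1), -2.02 (Ccnd3) and 0.82 (Cdk4) in wild type. PIR- wild type 1 was then the only library of its group. In KO they were 2.31, -1.72 and 0.43, and that of Ccnd2 was 0.64. The spread in this fit was pooled over all genes (13626 degrees of freedom), so these differences are given without p-values.

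Read against the whole table, 3 of these 4 genes were called higher in PIR+ wild-type cells, where 40.6% of the 4542 tested genes were, and 1 was called lower, where 3.72% were. In KO cells 2 of the 4 were called higher, against 22.5% of all tested genes, and 1 lower, against 2.97%. After scaling 2 of the 4 were called higher and 1 lower in wild type, with 22.6% of all tested genes called, 11.5% higher and 11% lower. In KO 1 was then called higher and 1 lower, with 15.6% of all tested genes called, 8.12% higher and 7.51% lower. A gene such as Ccnd1 passed the filter on low values through its PIR+ libraries, so these counts describe the genes and are not evidence of a shared trend. In the authors' deposited table the p-values for PIR+ against PIR- wild type were 1.47e-14 for Ccnd1, 1.13e-11 for Ccnd2, 7.55e-52 for Ccnd3 and 0.0311 for Cdk4, with no statement in the header of whether they were adjusted.

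**Figure D2:**
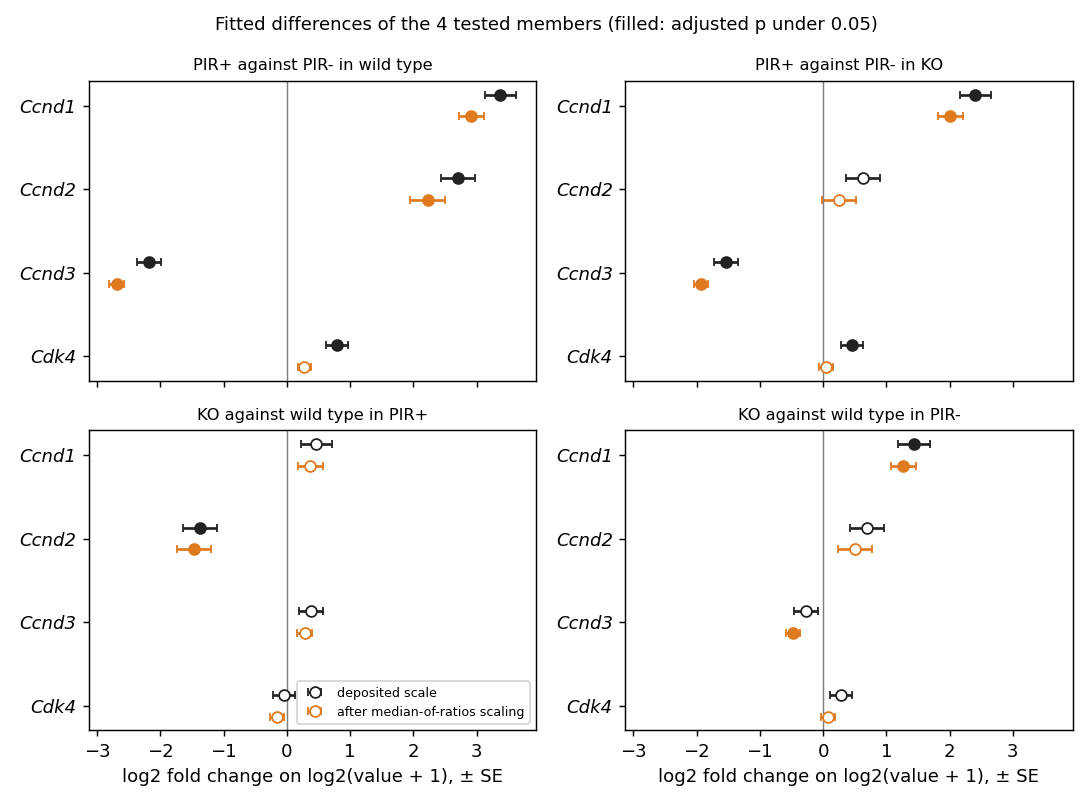
Log2 fold changes on the log2(value + 1) scale (horizontal axis, ± SE of the limma fit) of the 4 tested genes in 4 comparisons, in black as deposited and in orange after scaling, with filled symbols for an adjusted p under 0.05. Ccnd1 and Ccnd3 are filled on both scales in both subset comparisons, Cdk4 only on the deposited scale, and Ccnd2 is filled where wild-type PIR+ libraries are compared with either PIR- wild type or PIR+ KO.

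Ccnd3 made up most of the summed D cyclin level in PIR- cells and the smaller part of it in PIR+ cells. In wild type the 3 genes summed to 170 ± 23.3 (PIR+) and 212 ± 40.4 (PIR-), and in KO to 166.5 ± 33.2 (PIR+) and 196 ± 48.3 (PIR-). On this deposited scale the ranges of the 4 groups overlapped, with lowest and highest sums of 143.5 and 258.4. Per 1000000 of each library's summed value PIR+ and PIR- libraries did not overlap: the D cyclins were 745 ± 20.9 (PIR+) and 1254 ± 115 (PIR-) in wild type and 673 ± 41.9 (PIR+) and 1003 ± 107 (PIR-) in KO, and each PIR- library was above each PIR+ library. Ccnd3 made up 24.9% ± 2.41 of that sum in PIR+ and 92.6% ± 3.49 in PIR- cells of wild type, and 33.6% ± 4.11 and 83.9% ± 2.81 in those of KO. These shares compare molecules counted once each at the 3' end, so they need no correction for message length, and they do not depend on the scaling between libraries.

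Within PIR+ cells Ccnd1 and Ccnd2 were near equal in wild type, and Ccnd1 was the larger in all 3 KO libraries. In PIR+ wild type Ccnd1 held 35.9% ± 2.06 of the sum and Ccnd2 39.2% ± 3.49, so that the ratio of Ccnd1 to Ccnd2 was 0.923 ± 0.123, with a range of 0.796 to 1.04. In PIR+ KO the shares were 51.2% ± 1.36 and 15.2% ± 2.98, and the ratio was 3.43 ± 0.557, with a range of 2.80 to 3.87. In PIR- cells both were small, with 2.40% ± 0.682 for Ccnd1 and 4.98% ± 3.19 for Ccnd2 in wild type and 7.90% ± 1.25 and 8.22% ± 1.56 in KO. The ratio of Ccnd3 to the other 2 together ran from 0.333 ± 0.0428 in PIR+ wild type to 14.9 ± 7.65 in PIR- wild type, and was 0.510 ± 0.0931 in PIR+ KO and 5.32 ± 1.07 in PIR- KO. These ratios are given as descriptions without a test.

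**Figure D3:**
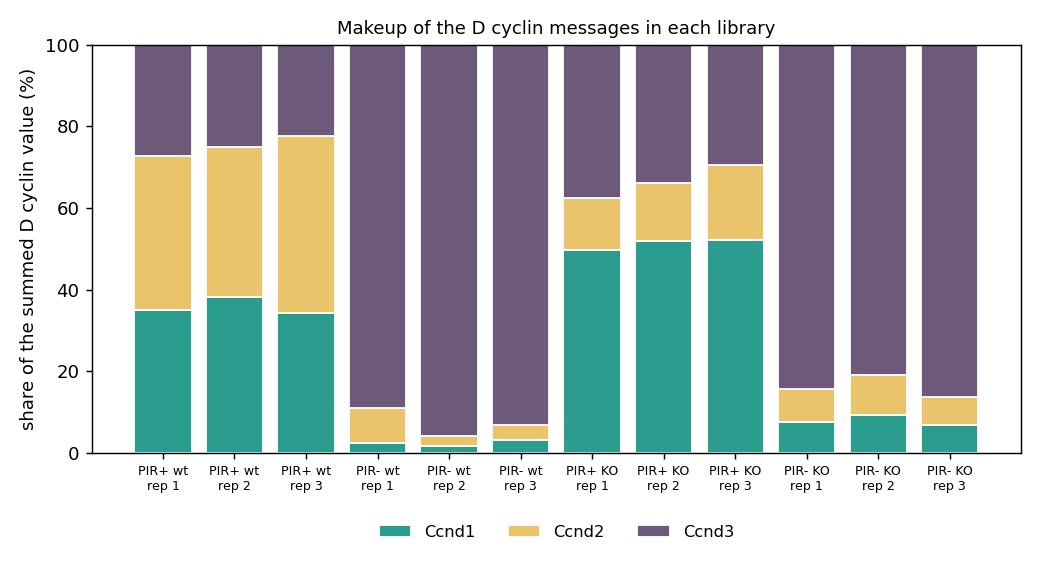
Share of each D cyclin in the summed value of the 3 (vertical axis, percent) in each of the 12 libraries. Ccnd3 fills 80.8% to 95.9% of the bar in the 6 PIR- libraries and 22.5% to 37.6% in the 6 PIR+ libraries, and the Ccnd2 segment is larger in the PIR+ wild-type than in the PIR+ KO libraries.

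When the genotypes were compared within a subset, 1 of the 4 tested genes was called in each. In PIR+ cells Ccnd2 was lower in KO, with 26 ± 10.4 against 67.0 ± 14.6, which makes wild type 2.58 times higher as a ratio of means. In PIR- cells Ccnd1 was higher in KO, with 15.3 ± 3.12 against 5.23 ± 2.38, or 2.92 times.

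In PIR+ cells the fall of Ccnd2 was -1.38 ± 0.27 (log2, SE, limma adjusted p = 0.000482) and after scaling -1.47 (adjusted p = 0.00256). All 3 KO libraries were below all 3 wild-type libraries, and the highest KO value, 38.0, belonged to replicate 3, the only PIR+ KO library whose sign labels match. Among the 6 libraries with matching labels the difference was -0.62, with 1 KO library left and every PIR+ library labelled E12.5. Without the 5 globin-rich libraries, a set that adds only PIR+ KO 2, it was -1.04. The difference was called in neither set. With no filter on low values it stayed at -1.38, with an adjusted p of 0.0614. Genes of a T and NK list moved with it: the 7 genes summed to 20.3 to 26.3 in wild-type and 1.2 to 4.6 in KO libraries of PIR+ cells, mostly through Cd7 (14.9 to 21.6 against 0 to 0.5), while Cd3e, Bcl11b and Ncr1 were at 0 in all of them. Their part in the Ccnd2 difference was not tested. In the authors' deposited table the p-value of Ccnd2 in this comparison was 1.33e-10. The other 3 genes were not called: Ccnd1 differed by 0.47 ± 0.25 (adjusted p = 0.770), Ccnd3 by 0.38 ± 0.19 (adjusted p = 0.720) and Cdk4 by -0.05 (adjusted p = 0.992). The authors' deposited table gives 0.0280 for Ccnd1, 0.151 for Ccnd3 and 0.234 for Cdk4. Among all 4542 tested genes, 0.462% were called lower and 0.44% higher in PIR+ KO, and after scaling 1.01% were called in either direction.

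In PIR- cells the rise of Ccnd1 was 1.44 ± 0.25 (limma adjusted p = 2.57e-05) and after scaling 1.27 (adjusted p = 0.000264). It passed in all 20 alternatives, with a highest adjusted p of 0.0130. Marker genes of 2 lists moved with it: the summed level of the stem and progenitor list was 47 to 55.9 in PIR- KO against 16.9 to 24.9 in PIR- wild type, and that of 8 myeloid genes was 41.5 to 57.6 against 14.8 to 25.9. Both lists held genes that PIR+ cells express more, Cd34 at 19 to 21.3 against 4.7 to 8 and Sfpi1 at 13.2 to 19.1 against 7.7 to 10.1, and their part in the Ccnd1 difference was not tested. Ccnd2 differed by 0.70 ± 0.27 (adjusted p = 0.214), and by 1.08 (adjusted p = 0.0219) without PIR- wild type 1, which had the highest Ccnd2 of its group. It differed by 0.26 (adjusted p = 0.809) without PIR- wild type 2, which had the lowest. The Ccnd2 difference was 0.10 both with matching labels and without the globin-rich libraries, settings that keep the same PIR- libraries. Ccnd3 differed by -0.27 ± 0.19 (adjusted p = 0.542) on the deposited scale and by -0.48 (adjusted p = 0.0195) after scaling, and Cdk4 by 0.29 (adjusted p = 0.449). Over all tested genes, 1.08% passed as higher in PIR- KO and 0.22% as lower, and 1.7% in either direction after scaling.

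The effect of the KO on Ccnd2 differed between the subsets. The interaction, the KO effect in PIR+ minus that in PIR-, was -2.07 ± 0.38 (limma adjusted p = 0.000397) and after scaling -1.98 (adjusted p = 0.0110). It was lost with no filter on low values (adjusted p = 0.128), among the libraries with matching labels (-0.72, adjusted p = 0.9996) and without the globin-rich libraries (-1.14, adjusted p = 0.965). The last 2 settings both keep PIR- wild type 1, with a Ccnd2 value of 16.4, as the only library of its group. They differ only in PIR+ KO 2. For Ccnd1 the interaction was -0.97 ± 0.35 (adjusted p = 0.404) and for Cdk4 -0.34 (adjusted p = 0.964), and for Ccnd3 it was 0.64 ± 0.27 (adjusted p = 0.637), or 0.76 (adjusted p = 0.0153) after scaling. Of all tested genes 0.462% were called with a negative and 0.11% with a positive interaction, and 0.749% were called after scaling.

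The 6 genes below the filter were counted in few molecules per library. For these the subsets were compared over both genotypes, 6 against 6 libraries, by an exact two-sided permutation test of the mean values, which can go no lower than p = 0.00216. A family of 12 such tests was run, for 6 genes and 2 factors, and p-values adjusted over all genes come from a limma fit without the filter on 14177 genes. With 3 libraries a side the smallest exact p is 0.1, so single groups were not tested. The exact p-values are not adjusted for the 12 tests. Cdkn1b and Cdkn2c were higher in PIR- cells by both the exact test and the limma fit. Cdk6 had an exact permutation p of 0.0325 and did not pass in the limma fit. No difference between genotypes passed either test.

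**Figure D4:**
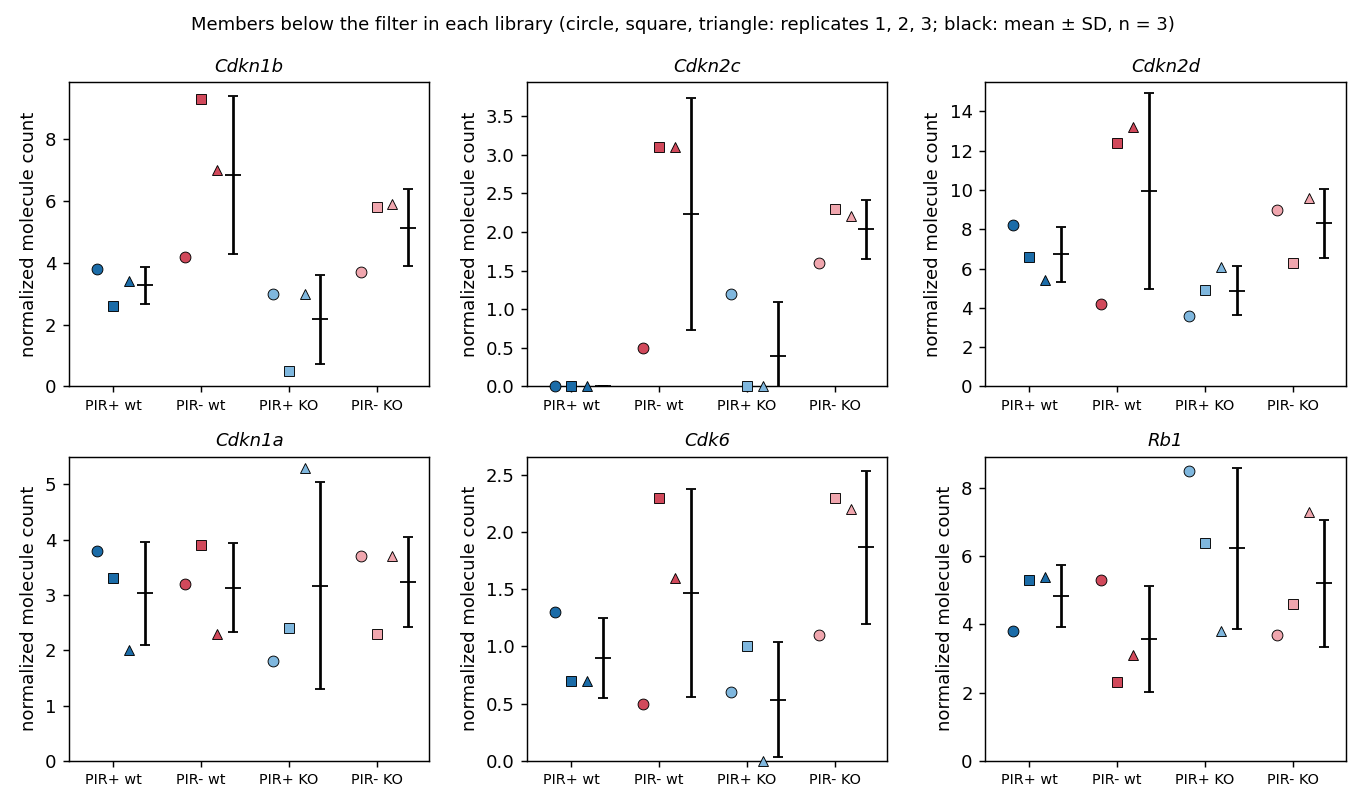
Normalized molecule counts (vertical axes, linear from 0, with a different range in each panel) of the 6 genes below the filter, with symbols for replicates 1 to 3 and bars for the mean ± SD (n = 3). Cdkn2c is at 0 in 5 of 6 PIR+ libraries and above 0 in all PIR- libraries, and Cdkn1b is lowest in a PIR+ KO library, at 0.5.

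Cdkn1b (chromosome 6, 134920401 to 134925513), which encodes p27, was 3.8, 2.6 and 3.4 in PIR+ wild type and 4.2, 9.3 and 7.0 in PIR- wild type. It was 3.0, 0.5 and 3.0 in PIR+ KO and 3.7, 5.8 and 5.9 in PIR- KO, that is 1 to 12 estimated molecules per library. Only the lowest PIR- library and the highest PIR+ library, at 3.7 and 3.8, crossed. The means over both genotypes were 2.72 ± 1.16 in PIR+ and 5.98 ± 2.02 in PIR- (SD, n = 6, exact permutation p = 0.00433), and the limma fit without the filter gave -0.95 ± 0.31 (adjusted p = 0.0257). In wild type alone that fit gave -0.83 (adjusted p = 0.207) and in KO alone -1.07 (adjusted p = 0.136). The exact p was 0.1, the smallest possible, among the libraries with matching labels and 0.0571 without the globin-rich libraries.

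Cdkn2c (chromosome 4, 109660876 to 109667189), which encodes the INK4 inhibitor p18, was listed at 0 in all 3 PIR+ wild-type libraries and was 0.5, 3.1 and 3.1 in PIR- wild type. It was 1.2, 0 and 0 in PIR+ KO and 1.6, 2.3 and 2.2 in PIR- KO. The 6 PIR+ libraries together held an estimated 2 molecules, both in 1 library, and the 6 PIR- libraries held 19. The means were 0.2 ± 0.49 and 2.13 ± 0.985 (SD, n = 6, exact permutation p = 0.00433), and limma without the filter gave an adjusted p of 0.00168 over both genotypes, 0.0150 in wild type alone and 0.0805 in KO alone. Called lower in PIR+ in that fit were 2.69% of the 14177 genes over both genotypes, 2 of these 6 genes among them, and 1.66% in wild type alone, 1 of the 6 among them. Among the libraries with matching labels the exact p was 0.1, again the smallest possible.

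Cdkn2d (chromosome 9, 21288410 to 21291407), the gene of the INK4 inhibitor p19, was 8.2, 6.6 and 5.4 in PIR+ wild type and 4.2, 12.4 and 13.2 in PIR- wild type. It was 3.6, 4.9 and 6.1 in PIR+ KO and 9.0, 6.3 and 9.6 in PIR- KO. In KO the subsets did not overlap, and in wild type PIR- replicate 1 lay below every PIR+ library. The means were 5.80 ± 1.57 and 9.12 ± 3.46 (SD, n = 6, exact permutation p = 0.0628). The exact p was 0.0108 after scaling and 0.0130 without PIR- wild type 1, while the libraries with matching labels gave a difference of 0.267 in the other direction.

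Cdk6 (chromosome 5, 3341485 to 3531008), the second kinase partner of the D cyclins, was counted at 0 to 4 estimated molecules per library. Wild-type libraries had 1.3, 0.7 and 0.7 (PIR+) and 0.5, 2.3 and 1.6 (PIR-), and KO libraries 0.6, 1.0 and 0 (PIR+) and 1.1, 2.3 and 2.2 (PIR-). The subsets overlapped in wild type and not in KO. The means of 0.717 ± 0.436 and 1.67 ± 0.745 differed with an exact permutation p of 0.0325 (n = 6), which was above 0.05 in 7 of 15 alternatives, 5 of them without 1 library (PIR- wild type 2 or 3, PIR+ KO 3, or PIR- KO 2 or 3). The limma fit without the filter gave -0.62 (adjusted p = 0.128). Each library held 151 to 403 estimated molecules of Cdk4.

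Cdkn1a (chromosome 17, 29090976 to 29100727), the p21 gene and a target of p53, ranged from 1.8 to 5.3 over the 12 libraries. Its means were 3.10 ± 1.32 in PIR+ and 3.18 ± 0.722 in PIR- cells (SD, n = 6, exact permutation p = 0.883). Rb1 (chromosome 14, 73183673 to 73325822), the substrate of the kinases, ranged from 2.3 to 8.5. Its means were 5.53 ± 1.77 and 4.38 ± 1.78 (SD, n = 6, exact permutation p = 0.303). Both genes overlapped between the subsets in each genotype, and at 3 to 14 estimated molecules per library smaller differences were not detectable.

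Between genotypes, over both subsets, the exact permutation p (n = 6) was 0.160 for Rb1, with means of 5.72 in KO and 4.20 in wild type, and 0.318 for Cdkn1b, with 3.65 and 5.05. It was 0.355 for Cdkn2d, 0.848 for Cdkn1a, 0.913 for Cdkn2c and 1 for Cdk6. In the authors' deposited table the p-values for PIR+ against PIR- wild type were 0.0271 for Cdkn1b, 0.0129 for Cdkn2c, 0.0533 for Cdkn2d, 0.369 for Cdk6, 0.564 for Cdkn1a and 0.969 for Rb1. For wild type against KO in PIR+ the authors' deposited table gives 0.324 to 0.895 for 5 of these genes and leaves Cdkn2c blank.

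Among further genes of the pathway, E2f2 had the largest called difference between the subsets. Of 23 further G1/S genes (cyclins E and A, Cdk2, other inhibitors, Rb relatives, E2F factors and the Cdk-activating kinase), 13 were tested, and in wild type 2 were called higher and 2 lower in PIR+ cells, where 40.6% of all tested genes were higher and 3.72% lower. Their median difference was -0.07, against 0.51 for all genes. After scaling 0 were higher and 5 lower, against 11.5% and 11% of all tested genes, with a median of -0.56 against 0.02. In KO 0 were higher and 1 was lower, where 22.5% and 2.97% of all tested genes were. E2f2, an activating E2F factor, was 4.4, 2.0 and 2.0 in PIR+ wild type against 22.3, 22.5 and 34.9 in PIR- wild type, and 8.5, 4.9 and 5.3 in PIR+ KO against 22.8, 25.4 and 27.9 in PIR- KO. The PIR- values did not overlap the PIR+ values. The difference in wild type was -2.89 ± 0.31 (limma adjusted p = 2.01e-13) and after scaling -3.32 (adjusted p = 4.28e-10). E2f2 passed the filter on low values through its PIR- libraries alone, since every PIR+ value lay below the filter limit. Its large difference therefore describes this gene and is not evidence of a shared trend in the list. Ccna2, the S-phase cyclin A2, had wild-type means of 34.6 ± 4.92 (PIR+) and 59.5 ± 7.77 (PIR-), a difference of -0.76 (adjusted p = 0.00229). E2f3, another activating factor, was 0.94 higher in PIR+ cells (adjusted p = 0.0254), and E2f6, a repressive one, was 0.83 higher (adjusted p = 0.0370), and neither passed after scaling. The INK4 genes Cdkn2a and Cdkn2b were listed at 0 in all 12 libraries.

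Of 14 S-phase genes that E2F factors control, all 14 were tested. In wild type 6 were called higher and 1 lower in PIR+ cells, near the 40.6% and 3.72% of all tested genes, with a median of 0.44 against 0.51. After scaling 0 were higher and 4 lower, against 11.5% and 11% of all tested genes, with a median of -0.07 against 0.02. In KO 4 were higher and 0 lower on the deposited scale, against 22.5% and 2.97%, and 0 and 3 after scaling, against 8.12% and 7.51%. Rrm2, a subunit of ribonucleotide reductase, had wild-type means of 55.9 ± 6.59 (PIR+) and 86.3 ± 7.99 (PIR-), a difference of -0.62 (limma adjusted p = 0.00959) and after scaling of -1.13 (adjusted p = 1.49e-07). The replication licensing genes Cdt1, Mcm6 and Mcm2 were 0.88, 0.73 and 0.58 higher in PIR+ cells (adjusted p = 0.00203, 0.00128 and 0.0121) and passed on the deposited scale only. Of 8 genes for turnover of D cyclins and inhibitors 6 were tested, and 2 were called higher in wild type, a share no larger than the 40.6% of all tested genes, and 0 after scaling. These were Skp1a, by 0.95 (adjusted p = 0.000510), and Cul1, by 0.74 (adjusted p = 0.0121), both parts of SCF ubiquitin ligases. Of 10 p53 target genes 1 was tested, Ccng1, which was 0.88 higher in PIR+ wild type (adjusted p = 0.0104) and did not pass after scaling. For KO against wild type 0 genes of these 4 lists were called in either subset on either scale, where 0.903% (PIR+) and 1.3% (PIR-) of all tested genes were called on the deposited scale and 1.01% and 1.7% after scaling.

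The tested genes whose profile over the 12 libraries was most like that of each D cyclin were found by Pearson's r of log2(value + 1), as a description, since all points share the division into PIR+ and PIR- libraries. For Ccnd1 they were Sfpi1, which encodes the myeloid and lymphoid factor PU.1 (r = 0.991), Ckap4 (0.990) and Ifi203 (0.989). Sfpi1 means, from the highest, were 60.6 ± 9.54 (PIR+ KO), 51.9 ± 5.40 (PIR+ wild type), 16.1 ± 2.95 (PIR- KO) and 8.93 ± 1.20 (PIR- wild type), the order found for Ccnd1. For Ccnd2 they were Tsc22d1 (0.957), Rai1 (0.936) and Acot13 (0.935). Tsc22d1 was 43.9 ± 4.45 in wild-type and 13.5 ± 7.95 in KO libraries of PIR+ cells, and 3.43 ± 2.28 and 4.4 ± 2.03 in those of PIR- cells. For Ccnd3 they were Prep (0.985), Tmem255a (0.980) and Cd79b (0.978), a component of the B-cell receptor. Prep was 71.9 ± 4.50 and 64.3 ± 8.71 in PIR- wild type and KO, and 11.2 ± 2.07 and 14.6 ± 2.53 in PIR+ wild type and KO.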

How the data were processed

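The deposited table holds 12 columns of normalized signal, 1 per library, and 2 columns of p-values from the authors' own tests. Per the labels' protocols, ERCC spike-in RNA was added to every tube for normalization and cDNA was primed with oligo-dT carrying a molecular barcode. TopHat2, DESeq2 and mm10 are named in the submitters' processing notes. The deposited signal is not whole: 93.0% to 94.2% of values up to 15 lay within 0.055 of a multiple of 1 step (0.490 to 0.775 per library), taken as the value of 1 molecule, and the rest did not, so no count test was run.

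Values were tested with limma 3.58.1 (R 4.3.3) on log2(value + 1), with a trended prior, 4 group means and genes at 10 or more in at least 3 libraries. The prior pools spread over all tested genes. The main fit used 101.64 degrees of freedom, far more than 12 libraries in 4 groups provide. Its very small p-values thus rest largely on the pooled spread. The fit with no filter used 21.89. Benjamini-Hochberg adjusted p under 0.05 was called, over all genes within each comparison. The added 1 understates fold changes of low genes. Figures used matplotlib 3.10.9. A simulation checked only that large changes were found. Its counts varied little beyond sampling, with no shift between library sums, so it gives no error rate for these data. Alternatives were median-of-ratios scaling, other pseudocounts and filters, a replicate block, libraries with matching sign labels, globin-poor libraries, and leaving out each library. The fit with scaling and no filter together was added after seeing the data. All 10 genes and up to 4 called genes of each pathway list are named, with the 3 most correlated genes of each D cyclin. The genes and lists were chosen with earlier results of these data known. Locations are from GENCODE M21.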

Additional observations from a re-analysis of the deposited data

Results flagged for a closer look

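The KO effect on Ccnd2 differed between the subsets by a test of the difference itself. It was -1.38 (log2) in PIR+ and 0.70 in PIR- cells, and the difference was -2.07 ± 0.38 (limma interaction, adjusted p = 0.000397). All 3 PIR+ KO libraries were below all 3 PIR+ wild-type libraries, while in PIR- cells the KO values of 12.2 to 18.5 overlapped the wild-type values of 4.6 to 16.4. Leaving out any 1 library kept the interaction between -2.45 and -1.64. It was not called with no filter on low values, among the libraries with matching sign labels or without the globin-rich libraries. No group of 4 to 10 libraries exists, so no library was tested as an outlier.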

How the results depend on the processing

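Ccnd1 and Ccnd3 kept direction and call in both subset comparisons, and Ccnd2 in the wild-type one, in all 20 alternatives. For KO against wild type in PIR+ cells 1 member was called, and 0 with no filter, in libraries with matching sign labels or without globin-rich libraries. In PIR- cells 1 was called, 2 after scaling, and 1 to 2 when single libraries were left out. For the interaction 1 was called, 2 after scaling, and 0 with no filter, with matching labels or without globin-rich libraries. These last 2 settings leave 6 and 7 libraries and 1 in some groups, whose spread is assumed to be that of the others. They differ only in PIR+ KO 2 and so are not separate checks. Their fits used 9084 and 13626 degrees of freedom, so the spread was a trend over all genes. Adjusted p-values from these 2 settings therefore do not measure the spread of each gene between the libraries kept.

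Signs that turned were all of uncalled differences. After scaling these were Cdk6 (-0.0861), Cdkn1a (-0.356) and Cdkn2c (-0.102) for KO minus wild type and Rb1 (-0.273) for PIR+ minus PIR-. With matching labels they were Cdkn1a (1.07), Cdkn2d (0.267) and Rb1 (-1.43) for PIR+ minus PIR-, Cdkn1b (1.37) and Cdkn2d (1) for KO minus wild type, Cdk4 in PIR+ (0.125) and Ccnd3 in PIR- (0.0807). Without globin-rich libraries they were Cdkn1a (0.633) and Rb1 (-0.908) for PIR+ minus PIR-, Cdkn1a (-0.00833), Cdkn1b (0.267) and Cdkn2d (0.392) for KO minus wild type, Cdk4 in PIR+ (0.0523) and Ccnd3 in PIR- (0.0807). With single libraries left out, KO minus wild type ran from -0.203 to 0.257 for Cdk6, -0.303 to 0.397 for Cdkn1a and -0.123 to 0.497 for Cdkn2c, PIR+ minus PIR- from -0.523 to 0.177 for Cdkn1a, and Cdk4 in PIR+ from -0.166 to 0.0151. The cause was not tested.

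Counts of all genes called moved more. The number of genes tested was 4542, but 2390 with a filter of 20 and 14177 with no filter. With the filter of 20 the share called between the wild-type subsets was 54.1%, against 44.4% in the main test. PIR+ against PIR- gave 2015 in wild type, and 1025 after scaling, 1294 with a filter of 20, 1053 with matching labels, 700 without globin-rich libraries and 1320 without PIR+ wild type 3. In KO it gave 1158, and 710 after scaling, 576 without globin-rich libraries, 662 without PIR+ KO 3 and 720 without PIR- KO 1. KO against wild type gave 41 in PIR+, with 23 to 62 over the alternatives, 59 in PIR-, with 31 to 209, and the interaction 26, with 3 to 34. The lowest of these counts came from the filter of 20 (23) and from no filter (31 and 3).

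Whether equal replicate numbers pair libraries was not settled. A correlation of deviations over 0.1 was found in 1 of 18 same-number pairs and in 3 of 36 other pairs. Of 12 libraries, 4 correlated best with their own number. This correlation over genes cannot register a shift shared by all genes of a library. Replicate 3 had the highest summed value in each group (253582, 187525, 284648 and 222700). With a replicate block the genes called were 2409, 1684, 62, 209 and 34 in the 5 comparisons, against 2015, 1158, 41, 59 and 26 without it. The members called stayed at 4, 3, 1, 1 and 1. Depth limits the 6 genes below the filter, at 0 to 17 estimated molecules per library.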
